A study of Saccharomyces cerevisiae with 36 samples.

Results

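GCN4 (YEL009C), the yeast activator of amino acid synthesis genes, was followed together with 33 genes for enzymes that make histidine, lysine, tryptophan and the other aromatic amino acids, threonine, asparagine, glutamine, glutamate and proline. The 34 open reading frames were taken by name from the 6600 in the count files, as members of these pathways chosen with earlier results of these data known, and all 34 passed the filter on low counts that left 6017 genes to test. They were 6 histidine genes (HIS1, HIS2, HIS4, HIS5, HIS6 and HIS7), 6 lysine genes (LYS1, LYS4, LYS9, LYS12, LYS20 and LYS21), 4 tryptophan genes (TRP2, TRP3, TRP4 and TRP5) and 6 genes of the shikimate and aromatic steps (ARO1, ARO2, ARO3, ARO4, ARO7 and ARO8). To these came 5 genes of the homoserine and threonine steps (HOM2, HOM3, HOM6, THR1 and THR4), ASN1 and ASN2 for asparagine, GLN1 for glutamine, GDH1 for glutamate, and PRO1 and PRO2 for proline.

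The libraries were total RNA from Saccharomyces cerevisiae BY4742, a haploid laboratory strain of mating type alpha, grown in rich YPD medium at 25 °C and then heated to 42 °C by adding warm medium. The 4 genotypes were wild type (WT), deletion of MPK1 (mpk1Δ), deletion of RRP6 (rrp6Δ) and deletion of both (the double deletion). Each was sampled at 0, 10 and 45 min, which made 12 groups of 3 libraries, lettered A, B and C. MPK1, listed as SLT2, encodes the mitogen-activated protein kinase of the cell wall integrity pathway, and RRP6 encodes an exonuclease of the nuclear exosome, which degrades and trims RNA. All 4 genotypes carry the auxotrophies of BY4742, so none of them can make its own lysine, histidine, leucine or uracil, and the medium supplies them. The labels did not say whether replicates came from separate cultures or whether a deletion strain was more than 1 clone, so p-values measure the spread between these libraries.

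Gcn4 is a basic leucine zipper protein. When an amino acid runs short, uncharged tRNA activates the kinase Gcn2, which phosphorylates the initiation factor eIF2; general translation slows while short upstream reading frames in the GCN4 leader let more ribosomes reach the Gcn4 coding sequence. The protein then binds sites with the core TGACTC in promoters across many biosynthetic pathways, the response known as general amino acid control. GCN4 mRNA measured here is therefore not a measure of Gcn4 protein.

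The core TGACTC was searched on both strands in the 500 bases before each start codon of build R64, and 21 of the 34 genes (61.8%) held it at least once, beside 759 of 6000 windows of all protein-coding genes (12.7%). The windows of 6 of the 34 held it more than once, with 3 matches each at HIS4 and HIS5. No match was present in the window of GCN4 itself, nor in those of ARO3, ARO8, TRP5, LYS4, LYS9, LYS20 or LYS21. The stretches below are 30 bases around 1 match each, in the direction of the gene, picked after the values were seen. They come from ARO4, which fell furthest with heat, and from 6 genes that rose before heat in a strain lacking RRP6. Of these 6, HIS4 rose only in the double deletion, and the others rose in rrp6Δ as well. Capitals mark the core, written GAGTCA where it lies on the opposite strand. The matched core began 199 bases before the start codon of HIS4 (YCL030C), 202 before HIS5 (YIL116W), 134 before LYS1 (YIR034C), 223 before ARO1 (YDR127W), 312 before ARO4 (YBR249C), 184 before HOM2 (YDR158W) and 283 before HOM3 (YER052C).
HIS4, chrIII:68515-68544, minus strand: acccatgcacagTGACTCacgtttttttat
HIS5, chrIX:142714-142743, plus strand: tcttggatctgtTGACTCacttcaattgat
LYS1, chrIX:420853-420882, minus strand: ttcagcgacaaaGAGTCAtaaagtcatcct
ARO1, chrIV:704249-704278, plus strand: ttgtcatgcataTGACTCatcccgaacatg
ARO4, chrII:718289-718318, minus strand: gttactgcgaaaTGACTCaacgatgaaatg
HOM2, chrIV:770161-770190, plus strand: tcaagcattgatTGACTCattttcctctga
HOM3, chrV:258224-258253, minus strand: ttttcaggcccaTGACTCaccttttctttc

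Counted reads per library ranged from 2235918 to 12072112. SLT2 had 6 reads in all over the 18 libraries that lack it against 111 to 1780 per library elsewhere, RRP6 had 2 against 40 to 1010, and LYS2 had 0 reads in all 36. HIS3 had 25 to 1164 reads per library; the his3 allele of BY4742 is a partial deletion, so counts over the whole gene do not check it. Alpha-specific mRNAs (4 genes) summed to between 6144 and 6689 CPM (counted reads of a gene relative to its library's total after TMM scaling, a correction for library composition, in parts per 10 to the power 6) in WT at 0 min and a-specific mRNAs (6 genes) to between 13.5 and 18.7. By 45 min the alpha-specific sum was 321.6 to 602.5 CPM in WT; the part of this in the results below was not tested. Replicate libraries correlated on log2 CPM with r of at least 0.954, the lowest for the double deletion heated for 45 min (B with C). Below, a gene rose or fell where edgeR's quasi-likelihood test gave an adjusted p under 0.05 over all 6017 genes; differences are log2 fold changes ± SE with 3 libraries per group. All levels are shares of the counted mRNA, and in bulk cultures less RNA per cell and fewer cells with it cannot be told apart. Heat comparisons in 1 strain share its 0 min libraries, and the deletion comparisons at 1 time share the WT libraries.

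Per kilobase of coding sequence, GCN4 was the most abundant of the 34 in unheated WT at 1358 CPM per kb. GLN1, glutamine synthetase, followed at 746 CPM per kb and ARO4, which starts the shikimate pathway, at 491. LYS1, the last lysine enzyme, was lowest at 22.5 CPM per kb, with ARO1 at 22.7 and HIS4 at 30.5 just above it.

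GCN4 fell with heat in all 4 strains. WT libraries A, B and C held 1101, 1094 and 1252 CPM before heat, 625, 736 and 649 after 10 min and 514, 588 and 480 after 45 min. The mpk1Δ libraries held 1016, 1041 and 1280 CPM, then 428, 384 and 419, then 196, 262 and 212. Before heat these 2 strains overlapped, and at 45 min every mpk1Δ library was below every WT library. The rrp6Δ libraries held 1346, 1267 and 1342 CPM, then 682, 548 and 519, then 279, 302 and 284. The double deletion held 1158, 1099 and 1174 CPM, then 610, 611 and 464, then 297, 316 and 397. In order of mean level, the 4 unheated groups came first, the 10 min groups of WT, rrp6Δ and the double deletion next, WT at 45 min and mpk1Δ at 10 min after them, and the deletion strains at 45 min last, with mpk1Δ lowest; among the unheated groups the libraries of WT, mpk1Δ and the double deletion overlapped. At 45 min against 0 min the log2 fold change was -1.12 ± 0.15 in WT (adjusted p = 3.45e-08), -2.32 ± 0.15 in mpk1Δ (adjusted p = 9.89e-15), -2.19 ± 0.15 in rrp6Δ (adjusted p = 3.4e-14) and -1.76 ± 0.15 in the double deletion (adjusted p = 4.17e-12).

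**Figure D1:**
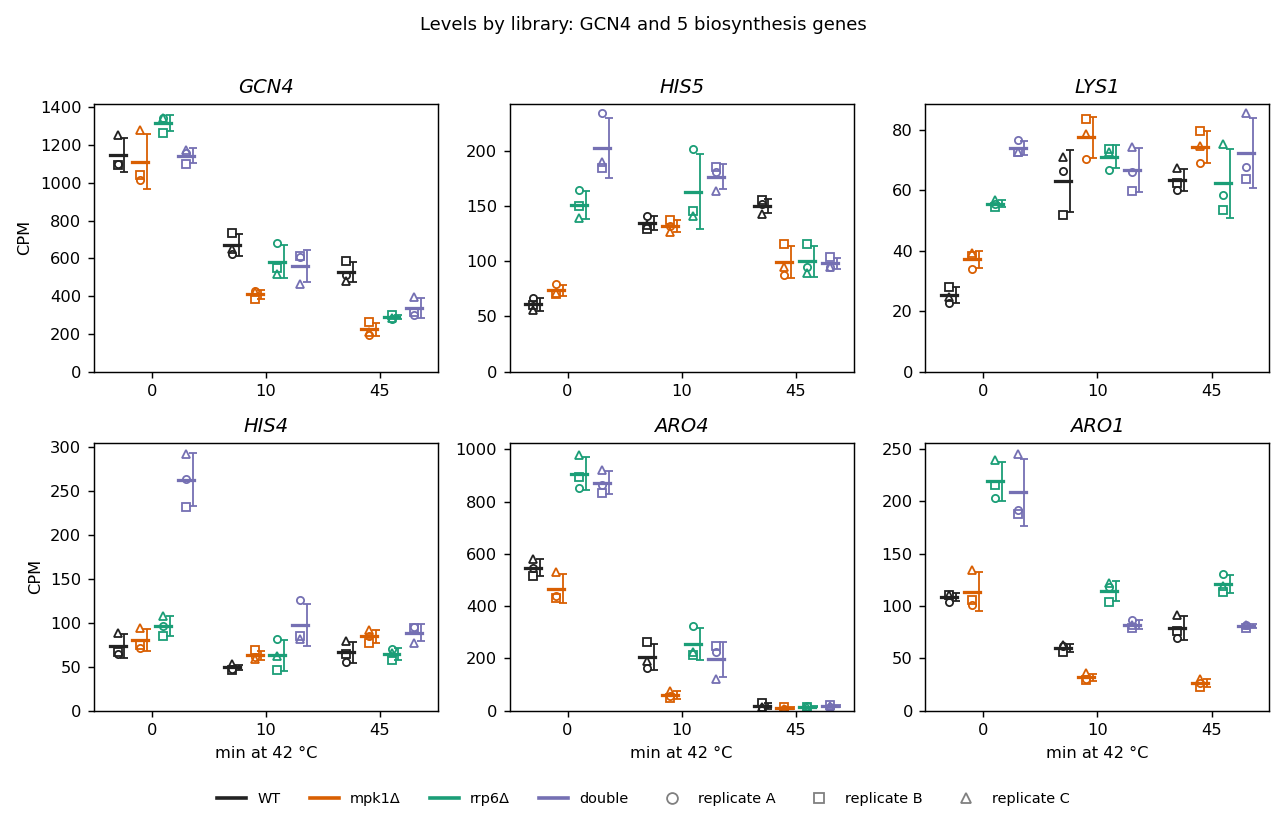
CPM by minutes at 42 °C for GCN4, HIS5, LYS1, HIS4, ARO4 and ARO1, with 1 symbol per library (circle A, square B, triangle C), coloured by strain, a bar at the mean and a whisker of 1 SD (n = 3). GCN4 and ARO4 descend with time in every strain, HIS5 and LYS1 climb in WT, and HIS4 stands at 232 to 292 CPM in the unheated double deletion against 64.2 to 108 in the other unheated strains.

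Within 10 min of heat, WT cells lowered the mRNA of most of these enzymes. In WT 28 of the 34 genes fell and 2 rose (HIS5 and LYS1), where 36.2% of all genes tested fell and 38.3% rose; the median of the 34 was -0.93 and that of all genes 0.04. Among the 6 histidine genes 5 fell, among the 6 lysine genes 5, and all 4 tryptophan and all 6 shikimate and aromatic genes fell. HOM2, HOM6, GDH1 and PRO2 did not pass the test at this time, at -0.20, -0.18, -0.34 and -0.17.

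LYS20, 1 of the homocitrate synthases that open lysine synthesis, went from 235, 235 and 238 CPM to 42.1, 70.1 and 31.9 in WT at 10 min. Its log2 fold change was -2.31 ± 0.24 (adjusted p = 4.37e-10). GLN1 went from 731, 725 and 1034 CPM to 260, 162 and 140, a change of -2.15 ± 0.39 (adjusted p = 1.47e-05). In both genes the heated libraries lay far below the unheated ones. PRO1, gamma-glutamyl kinase and the first proline enzyme, dropped from 152, 148 and 156 CPM to 30.8, 42.6 and 32.0, or -2.12 ± 0.22 (adjusted p = 6.1e-10). HIS1, ATP phosphoribosyltransferase and the first histidine enzyme, dropped from 281, 267 and 284 CPM to 78.3, 69.9 and 69.0, or -1.94 ± 0.18 (adjusted p = 3.43e-11).

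By 45 min in WT 31 genes had fallen and HIS5 and LYS1 had risen, where 39.2% of all genes fell and 41.0% rose; the median of the 34 was -1.63 and that of all genes 0.04. ARO4 showed the largest fall, from 546, 514 and 581 CPM to 8.69, 29.7 and 15.0. Its log2 fold change was -4.79 ± 0.32 (adjusted p = 2.83e-14), and the heated library with the most ARO4 mRNA (B) had over 3 times that of the one with the least (A). GLN1 reached 66.6, 105 and 66.2 CPM (-3.36 ± 0.42, adjusted p = 1.68e-08) and HIS1 reached 19.5, 34.5 and 27.3 CPM (-3.29 ± 0.20, adjusted p = 2.27e-15). LYS12, homoisocitrate dehydrogenase, went from 197, 210 and 214 CPM to 18.1, 28.1 and 15.6 (-3.24 ± 0.20, adjusted p = 3.3e-15). HIS4, a 3-step histidine enzyme, was the only 1 of the 34 that did not pass, at 55.7, 63.9 and 79.0 CPM (-0.14).

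HIS5 and LYS1 moved the other way in WT. HIS5, histidinol-phosphate aminotransferase, went from 66.6, 60.1 and 55.4 CPM before heat to 141, 129 and 133 after 10 min and 152, 155 and 142 after 45 min. LYS1, saccharopine dehydrogenase, went from 22.8, 28.1 and 24.7 CPM to 66.5, 51.6 and 71.1 and then 60.1, 62.5 and 67.3. No heated WT library overlapped an unheated one for either gene. HIS5 had risen by 1.15 ± 0.13 at 10 min (adjusted p = 4.97e-09) and by 1.31 ± 0.13 at 45 min (adjusted p = 3.6e-10). LYS1 had risen by 1.32 ± 0.13 and then 1.32 ± 0.14 (adjusted p = 4.49e-10 and 8.33e-10).

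Across the 8 comparisons of heated with unheated cells, 23 of the 34 genes fell in all 8. How many of all genes fell in all 8 was not counted, so the 23 has no background beside it. The genes that rose in any of them were HIS5, LYS1 and ARO7. In mpk1Δ at 10 min 29 genes fell and 2 rose (36.9% and 40.5% of all genes), with a median of -1.47 against 0.06 over all genes; at 45 min 29 fell and 2 rose (39.5% and 42.4%), with a median of -2.04 against 0.07. In rrp6Δ at 10 min 31 fell and LYS1 rose (37.7% and 37.2%), with a median of -1.13 against 0.01. At 45 min in rrp6Δ 33 fell and 0 rose in edgeR (39.0% and 40.5%), 0 also at an unadjusted p under 0.05 and in DESeq2, with a median of -2.02 against 0.05. In the double deletion at 10 min 31 fell and 0 rose in edgeR (37.3% and 37.3%), 0 again at an unadjusted p under 0.05 and in DESeq2, with a median of -1.43 against -0.01. At 45 min 32 fell and ARO7 rose by 0.29 (37.9% and 39.9%), with a median of -1.96 against 0.04. None rose there without 0 min library B or C or 45 min library C of the double deletion.

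ARO4 had the largest fall of the 34 at 45 min in each deletion strain too. It stood at 6.17, 13.0 and 7.32 CPM in mpk1Δ (-5.67 ± 0.33, adjusted p = 6.82e-16), at 16.6, 14.2 and 13.4 in rrp6Δ (-5.94 ± 0.34, adjusted p = 5.54e-16) and at 13.0, 19.9 and 18.3 in the double deletion (-5.66 ± 0.33, adjusted p = 1.47e-15). ARO8, aromatic aminotransferase I, changed by -2.77 ± 0.14 in mpk1Δ, -3.36 ± 0.15 in rrp6Δ and -3.28 ± 0.15 in the double deletion (adjusted p = 8.11e-17, 2.97e-18 and 7.21e-18). GDH1, the NADP-dependent glutamate dehydrogenase that fixes ammonium, changed by -3.84 ± 0.22 in mpk1Δ, -3.34 ± 0.215 in rrp6Δ and -3.49 ± 0.22 in the double deletion. LYS12 changed by -3.15 ± 0.18, -3.38 ± 0.19 and -3.17 ± 0.19 in mpk1Δ, rrp6Δ and the double deletion. ARO2, chorismate synthase, changed by -2.61 ± 0.19 in mpk1Δ, -3.35 ± 0.21 in rrp6Δ and -3.02 ± 0.20 in the double deletion. Already at 10 min ARO4 had changed by -2.97 ± 0.28 in mpk1Δ, -1.83 ± 0.27 in rrp6Δ and -2.15 ± 0.27 in the double deletion. ARO2 had changed by -2.31 ± 0.19, -2.30 ± 0.19 and -2.29 ± 0.19 in mpk1Δ, rrp6Δ and the double deletion. PRO1 had changed by -2.51 ± 0.22 in mpk1Δ and -2.104 ± 0.22 in rrp6Δ. LYS20 had changed by -2.41 ± 0.24 and HIS1 by -2.18 ± 0.18 in mpk1Δ, and HIS1 by -2.21 ± 0.17 in the double deletion. LYS12 had changed by -2.16 ± 0.17 in rrp6Δ, and ARO3 by -2.11 ± 0.17 in rrp6Δ and -1.99 ± 0.17 in the double deletion. Each gene named here for 10 min fell in every deletion strain.

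HIS5 rose in mpk1Δ by 0.84 ± 0.13 at 10 min and 0.43 ± 0.13 at 45 min, and LYS1 by 1.07 ± 0.12 and 1.01 ± 0.12. In rrp6Δ the rise of LYS1 at 10 min was 0.36 ± 0.12 (adjusted p = 0.0109), from 55.3, 54.4 and 56.6 CPM to 66.6, 73.7 and 72.7. Scaling by total counts turned that LYS1 change to -0.19 (adjusted p = 0.288) and took the HIS5 rise in mpk1Δ at 45 min to 0.32 (adjusted p = 0.0806). The median over all genes shifted under that scaling by -0.37 and -0.71 in heated WT at 10 and 45 min, -0.28 and -0.12 in mpk1Δ, -0.54 and -0.66 in rrp6Δ and -0.50 and -0.53 in the double deletion.

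**Figure D2:**
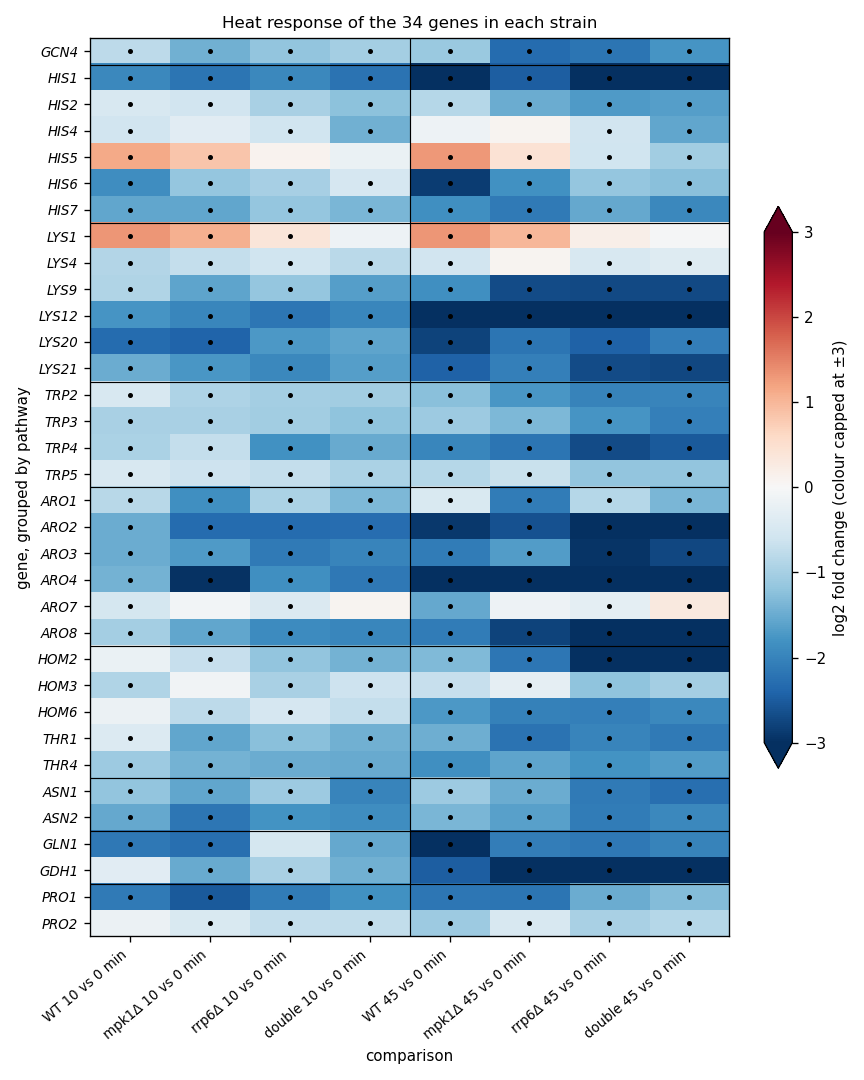
Heat map of the log2 fold change of each of the 34 genes, grouped by pathway, at 10 min (left 4 columns) and 45 min (right 4 columns) against 0 min in WT, mpk1Δ, rrp6Δ and the double deletion; blue is lower, red is higher, the colour is capped at 3, and a dot marks an adjusted p under 0.05. All rows but HIS5, LYS1 and ARO7 are blue wherever they are dotted, and ARO4 reaches -4.79 to -5.94 at 45 min.

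From 10 to 45 min most genes continued downwards in WT, rrp6Δ and the double deletion, while most in mpk1Δ did not pass as lower. In WT 22 fell further and ARO1 rose (21.8% and 25.0% of all genes), in mpk1Δ 16 fell and 3 rose (26.4% and 25.6%), in rrp6Δ 25 fell and PRO1 rose (18.1% and 16.9%), and in the double deletion 21 fell and LYS4 rose (18.3% and 16.9%). ARO4 changed further by -3.37 ± 0.31 in WT, -2.70 ± 0.30 in mpk1Δ, -4.11 ± 0.32 in rrp6Δ and -3.51 ± 0.31 in the double deletion, and GDH1 by -2.12 ± 0.21, -2.33 ± 0.21, -2.37 ± 0.21 and -2.06 ± 0.21. HOM6, homoserine dehydrogenase, and LYS12 changed further in WT by -1.55 ± 0.12 and -1.47 ± 0.20. HOM2, aspartate semialdehyde dehydrogenase, changed further by -1.46 ± 0.14 in mpk1Δ, -1.93 ± 0.15 in rrp6Δ and -1.60 ± 0.15 in the double deletion. TRP4 changed by -1.48 ± 0.12 in mpk1Δ, GLN1 by -1.62 ± 0.39 in rrp6Δ, and ARO8 by -1.33 ± 0.14 in the double deletion. HOM6, LYS12, HOM2, TRP4 and ARO8 fell further in every strain, ARO8 most in rrp6Δ (-1.48 ± 0.14). GLN1 also fell further in WT (-1.22 ± 0.39). In mpk1Δ the risers were LYS4, homoaconitase (0.79 ± 0.13), ASN2 (0.54 ± 0.12) and HIS4 (0.43 ± 0.17).

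GCN4 changed from 10 to 45 min by -0.34 ± 0.14 in WT (adjusted p = 0.0493), -0.88 ± 0.14 in mpk1Δ, -1.01 ± 0.15 in rrp6Δ and -0.74 ± 0.14 in the double deletion. The WT value rested at the threshold: adjusted p was 0.0513 with the replicate letter as a block, and it was also missed without WT library A, B or C at 10 min (-0.37, -0.26 and -0.35) and without A or C at 45 min (-0.31 and -0.26). DESeq2 missed it too (adjusted p = 0.0899). So did edgeR with DESeq2's size factors (adjusted p = 0.133), no filter (0.0513), a minimum mean of 5 CPM (0.0787) or only the libraries compared (0.0652). ARO1 in WT (0.39 ± 0.13) was lost without library C at 45 min (0.29), with total counts (0.03) and with only the libraries compared (0.33). HIS4 in mpk1Δ was lost without library A or C at 10 min (0.41 and 0.39) or at 45 min (0.45 and 0.37). LYS4 in the double deletion (0.43 ± 0.13) was lost without library A at 45 min or B at 10 min (0.35 and 0.36), and with only the libraries compared (0.44). No gene rose in rrp6Δ without library B or C at 10 min or A or B at 45 min, and 2 rose in the double deletion without library C at 45 min. In WT 3 rose without library A at 45 min or C at 10 min and 2 without B at 45 min, and with DESeq2's size factors the WT split was 4 higher and 19 lower.

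Before heat, a set of these genes was higher in rrp6Δ than in WT, while GCN4 mRNA did not pass the test. In unheated rrp6Δ 11 of the 34 rose against WT, where 9.32% of all genes rose, and 0 fell in edgeR, where 4.64% of all genes fell; at an unadjusted p under 0.05 the counts were 14 and 2, in DESeq2 11 and 2, and with DESeq2's size factors in edgeR 10 and 2. With only the libraries compared edgeR gave 16 higher and 6 lower, with the replicate block 12 and 1, and 1 was lower without rrp6Δ library A. GCN4 differed by 0.20 ± 0.14 (adjusted p = 0.411), though every rrp6Δ library was above every WT library. The 11 were HIS1 and HIS5, LYS1, TRP4 and TRP5, ARO1, ARO3 and ARO8, HOM2 and HOM3, and ASN1. The median of the 34 was 0.20 and that of all genes 0.03.

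HIS5 stood at 164, 150 and 139 CPM in unheated rrp6Δ against 66.6, 60.1 and 55.4 in WT, a difference of 1.31 ± 0.13 (adjusted p = 8.2e-09). HOM2 stood at 991, 991 and 1075 CPM against 446, 425 and 455 (1.21 ± 0.14, adjusted p = 1.98e-07). HOM3, aspartate kinase, stood at 356, 357 and 368 CPM against 165, 153 and 153 (1.20 ± 0.11, adjusted p = 5.99e-10). For all 3 every rrp6Δ library was more than 2 times as high as any WT library. LYS1 stood at 55.3, 54.4 and 56.6 CPM against 22.8, 28.1 and 24.7 (1.12 ± 0.13, adjusted p = 2.13e-07), a level that WT reached with heat. The remaining 7 rose by 0.45 (TRP4) to 1.03 (ARO3). ARO4 had 851, 894 and 977 CPM in rrp6Δ against 546, 514 and 581 in WT, but its difference of 0.73 did not pass the test.

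Of the 11 genes that rose in unheated rrp6Δ, 8 were among the 21 with TGACTC in the window shown above and 3 among the 13 without it (ARO3, ARO8 and TRP5). The double deletion gave 11 of 21 and 4 of 13. Over all tested genes with a window, 13.6% of 738 with the core and 7.55% of 4977 without it rose in rrp6Δ, and 20.3% and 13.2% in the double deletion. These counts describe the windows and do not show binding.

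The unheated double deletion had 15 genes higher and 2 lower than WT, beside 14.8% and 11.6% of all genes, with a median of 0.32 against 0.01 over all genes; all 4 tryptophan genes and 4 of the 6 histidine genes were among the higher ones. HIS4 stood at 263, 232 and 292 CPM against 64.2, 67.2 and 88.6 in WT, a difference of 1.84 ± 0.18 (adjusted p = 3.5e-09). In mpk1Δ it stood at 71.2, 74.3 and 94.3 CPM, and in rrp6Δ at 96.4, 85.0 and 108. Every library of the double deletion was thus more than 2 times as high as every library of the other 3 strains. HIS5 was higher than in WT by 1.74 ± 0.13 (adjusted p = 2.57e-11), LYS1 by 1.54 ± 0.13 (adjusted p = 4.16e-10) and HOM3 by 1.20 ± 0.11 (adjusted p = 6.34e-10).

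The 2 lower genes in the unheated double deletion were ARO7 and HIS6. ARO7, chorismate mutase, stood at 82.8, 68.3 and 64.6 CPM against 127, 119 and 122 (-0.77 ± 0.12, adjusted p = 3.23e-05). HIS6, an isomerase of histidine synthesis, stood at 32.4, 31.8 and 33.6 CPM against 52.3, 43.2 and 42.8 (-0.49 ± 0.15, adjusted p = 0.0125), and did not pass without WT library A (-0.40) or with scaling by total counts (-0.23). GCN4 differed from WT by -0.01 ± 0.14.

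In unheated mpk1Δ 1 of the 34 was higher than in WT and 2 were lower (9.99% and 5.22% of all genes). LYS1 was higher at 33.98, 38.1 and 39.3 CPM (0.54 ± 0.14, adjusted p = 0.00563). ARO7 was lower at 72.1, 74.7 and 78.2 CPM (-0.71 ± 0.125, adjusted p = 0.000168) and LYS4 at 71.8, 85.1 and 84.7 against 107, 108 and 117 (-0.45 ± 0.13, adjusted p = 0.0129). LYS4 did not pass without mpk1Δ library A (-0.38) or WT library C (-0.41), and with total-count scaling the split was 1 higher and 1 lower; DESeq2 gave 1 and 4.

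**Figure D3:**
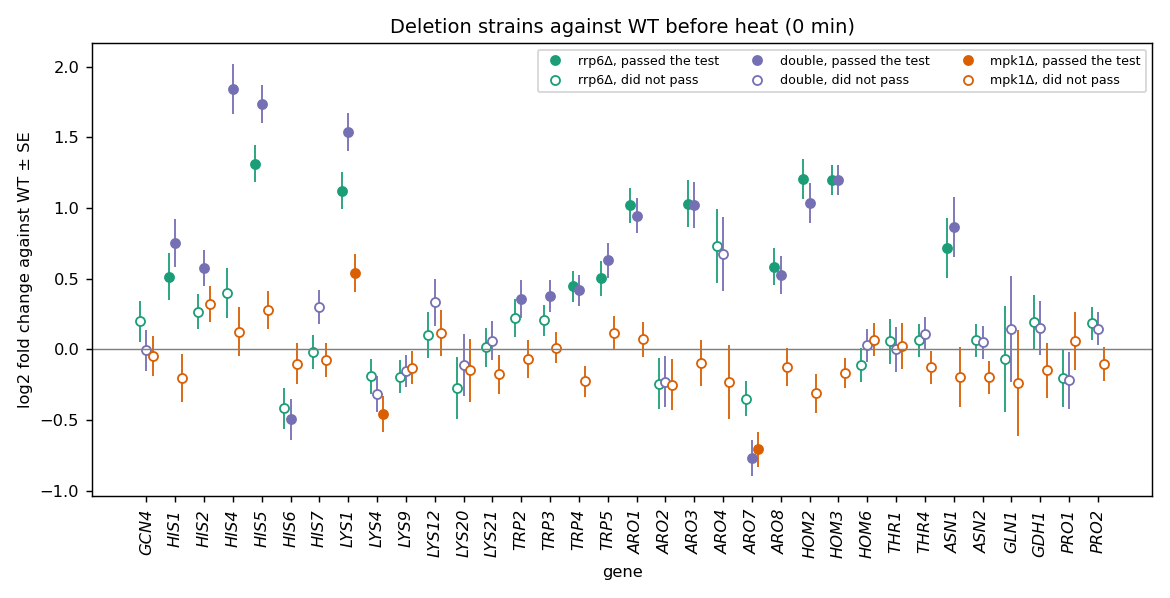
Log2 fold change against WT at 0 min, with a whisker of 1 SE, for each of the 34 genes in rrp6Δ (green), the double deletion (purple) and mpk1Δ (orange); filled circles passed the test, with 3 libraries per group. HIS5, LYS1 and HOM3 lie at 1.12 to 1.31 in green and 1.20 to 1.74 in purple, both taken against the same WT libraries, and HIS4 lies at 1.84 in the double deletion against 0.40 in rrp6Δ.

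As a test of the double deletion against the sum of the single ones, its log2 difference from WT was compared with the sum of theirs. At 0 min HIS4 exceeded that sum by 1.32 ± 0.24 (adjusted p = 0.00208) and was the only 1 of the 34 to depart from it, with 0.166% of all genes above the sum and 0.864% below. None of the 34 fell below the sum in edgeR, at an unadjusted p under 0.05 or in DESeq2. Both single-deletion differences of HIS4 were small, at 0.13 in mpk1Δ and 0.40 in rrp6Δ, and neither passed the test.

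In heated cells the strains diverged in several directions. In mpk1Δ at 10 min 17 genes were lower and 2 higher than in WT (22.3% and 22.6% of all genes). ARO4 stood at 54.3, 47.7 and 75.5 CPM against 164, 262 and 191 in WT (-1.79 ± 0.27, adjusted p = 6.2e-06). GDH1 stood at 193, 171 and 196 CPM against 455, 482 and 453 (-1.31 ± 0.20, adjusted p = 5.47e-06). THR1, homoserine kinase, stood at 43.2, 47.9 and 40.2 CPM against 94.2, 125 and 69.7 (-1.13 ± 0.17, adjusted p = 4.69e-06). All 3 were below every WT library. ARO2 (-1.08 ± 0.19, adjusted p = 3.49e-05) and GCN4 (-0.71 ± 0.14, adjusted p = 0.000223) were lower as well, while HOM3 (0.65 ± 0.11) and HIS6 (0.59 ± 0.17) were higher.

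By 45 min mpk1Δ had 14 lower and 7 higher (31.5% and 29.9% of all genes), with 3 higher without WT library A or mpk1Δ library B. ARO1, the 5-function enzyme of the shikimate pathway, stood at 26.4, 22.8 and 30.7 CPM against 69.5, 75.9 and 91.8 in WT, a difference of -1.57 ± 0.14 (adjusted p = 1.5e-10). GDH1 (-1.52 ± 0.21), GCN4 (-1.24 ± 0.15, adjusted p = 3.13e-08) and HOM2 (-1.16 ± 0.15) were lower too. HIS6 (0.92 ± 0.22), ARO7 (0.66 ± 0.14), HIS1 (0.62 ± 0.19) and PRO2 (0.53 ± 0.12) were higher, HIS1 not without WT library A (0.46) or mpk1Δ library B (0.42). The balance depended on scaling: scaling to total counts shifted the median over all genes by 0.24 at 10 min and 0.76 at 45 min, gave 5 higher and 10 lower at 10 min and 22 higher and 3 lower at 45 min, and took HOM2 to -0.38 (adjusted p = 0.051), while DESeq2's size factors gave 5 and 17 at 45 min.

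In rrp6Δ at 10 min 8 were lower and 7 higher than in WT (15.8% and 14.5%). These counts rested on single libraries: 13 were lower and 3 higher without rrp6Δ library A, 5 were lower without WT library B, 4 were lower without rrp6Δ library B, and 4 were higher without WT library C. GLN1 stood at 721, 454 and 478 CPM against 260, 162 and 140 (1.56 ± 0.39, adjusted p = 0.00262). HOM3 (1.13 ± 0.11) and ARO1 (0.92 ± 0.13) were still higher, as before heat, and ASN1 was higher by 0.81 ± 0.21, though not without rrp6Δ library A (0.55). ARO2 (-1.05 ± 0.19), THR1 (-0.78 ± 0.17), LYS9 (-0.45 ± 0.12) and HOM6 (-0.43 ± 0.12) were lower, though with total counts HOM6 did not pass (-0.42, adjusted p = 0.0544) and the split was 4 higher and 4 lower. At 45 min 12 were lower and 7 higher (24.7% and 21.7%). LYS9, the saccharopine-forming reductase, stood at 17.6, 18.4 and 17.4 CPM against 39.8, 37.5 and 33.4 (-1.05 ± 0.15, adjusted p = 1.58e-06), and GCN4 was lower by -0.87 ± 0.15 (adjusted p = 1.41e-05).

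Also in rrp6Δ at 45 min, HIS6 stood at 12.1, 16.9 and 17.2 CPM against 3.62, 6.79 and 7.79 in WT (1.27 ± 0.23, adjusted p = 3.37e-05), with no overlap. ARO7 (0.88 ± 0.14) and HIS1 (0.73 ± 0.20) were higher as well, and GLN1 (1.15 ± 0.40) was higher but not without WT library A or C (1.01 and 0.998) or rrp6Δ library B or C (1.05 and 0.99). GDH1 (-0.69 ± 0.21) and ARO2 (-0.68 ± 0.20) were lower, ARO2 not without WT library B (-0.43). With total counts, under which the all-gene median shifted by 0.23, the split was 10 higher and 4 lower and GDH1 (-0.46) and ARO2 (-0.47) were lost.

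In the heated double deletion 8 were lower and 9 higher at 10 min (18.5% and 18.7% of all genes) and 10 lower and 7 higher at 45 min (27.4% and 24.7%). At 10 min HOM3 stood at 235, 219 and 245 CPM against 79.4, 76.6 and 94.2 in WT (1.48 ± 0.11, adjusted p = 1.34e-11) and HIS4 at 125, 85.2 and 81.2 against 47.5, 46.7 and 52.8 (0.99 ± 0.18, adjusted p = 6.04e-05). HIS6 (0.86 ± 0.16) and HIS7 (0.50 ± 0.13) were also higher. The lower genes were led by ARO2 (-1.03 ± 0.19), THR1 (-1.02 ± 0.17), GDH1 (-0.95 ± 0.20) and LYS9 (-0.90 ± 0.12). At 45 min HIS6 (1.09 ± 0.23), ARO7 (1.05 ± 0.14) and HIS1 (0.99 ± 0.20) were higher and LYS9 (-1.01 ± 0.15), GDH1 (-0.88 ± 0.21), HOM2 (-0.66 ± 0.15), THR1 (-0.65 ± 0.19) and GCN4 (-0.65 ± 0.14, adjusted p = 0.000436) were lower.

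GLN1 at 45 min in the double deletion was set by 1 library. Its libraries held 133, 126 and 426 CPM against 66.6, 105 and 66.2 in WT, and the difference of 1.501 ± 0.40 (adjusted p = 0.00227) became 0.67 (adjusted p = 0.136) without library C. Scaling to total counts shifted the all-gene median by 0.14 at 10 min and 0.46 at 45 min, gave 9 higher and 4 lower and then 17 higher and 1 lower, and left GCN4 (-0.16), GDH1 (-0.45), HOM2 (-0.17) and THR1 (-0.20) short of the threshold at 45 min.

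**Figure D4:**
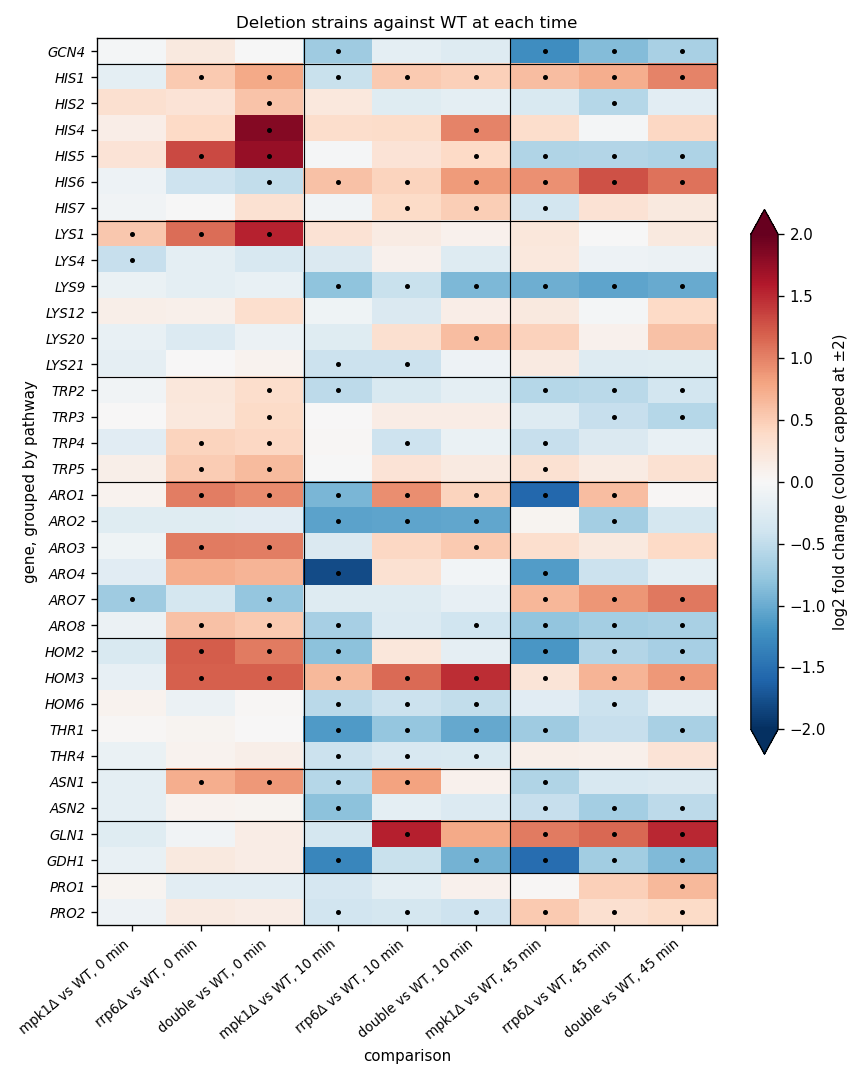
Heat map of the log2 fold change of each of the 34 genes in mpk1Δ, rrp6Δ and the double deletion against WT at 0, 10 and 45 min; blue is lower, red is higher, the colour is capped at 2, and a dot marks an adjusted p under 0.05. HIS5, LYS1, HOM2, HOM3, ARO1 and ARO3 are red at 0 min in the strains lacking RRP6, and GCN4, GDH1 and LYS9 are blue at 45 min in all 3 deletion strains.

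Heat responses were also compared directly, as the change in a deletion strain minus the change in WT. For mpk1Δ 10 genes responded lower and 2 higher at 10 min (13.3% and 7.98% of all genes), and 10 lower and 6 higher at 45 min (24.7% and 17.5%). For rrp6Δ the counts were 8 and 2 at 10 min (8.38% and 4.79%) and 16 and 2 at 45 min (19.6% and 12.6%), and for the double deletion 17 and 4 at 45 min (21.0% and 15.9%). In the double deletion at 10 min 17 of the 34 differed from WT in response, 15 of them lower and 2 higher, where 20.2% of all genes differed in either direction. At 10 min the lower count in rrp6Δ was 13 without rrp6Δ 10 min library A and 5 without WT 10 min library B, and the higher count was 1 without any of 10 of the 12 libraries, all but WT 10 min A and B. The higher count in mpk1Δ at 10 min was 1 without WT 0 min library A, mpk1Δ 0 min library A or B or mpk1Δ 10 min library B. That of the double deletion at 45 min was 2 without its 0 min library B, WT 0 min library C or WT 45 min library C. With total counts the mpk1Δ counts became 4 lower and 1 higher at 10 min and 2 lower and 14 higher at 45 min, and the rrp6Δ counts at 10 min 9 and 0, with all-gene medians shifted by 0.60 for mpk1Δ at 45 min and -0.17 for rrp6Δ at 10 min.

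GCN4 fell more with heat than in WT by -0.66 ± 0.20 in mpk1Δ at 10 min (adjusted p = 0.0194) and by -1.19 ± 0.20 at 45 min (adjusted p = 3.03e-05). At 45 min the difference was -1.07 ± 0.20 in rrp6Δ (adjusted p = 0.000172) and -0.64 ± 0.20 in the double deletion (adjusted p = 0.0139). With total counts the mpk1Δ values were -0.56 (adjusted p = 0.14) and -0.57 (adjusted p = 0.0698) and that of the double deletion -0.43 (adjusted p = 0.212). At 10 min the mpk1Δ difference did not pass without WT 10 min library B (-0.59) or mpk1Δ 0 min library C (-0.55). The 10 min differences in rrp6Δ (-0.40) and the double deletion (-0.25) did not pass the test.

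HIS5 and LYS1, which started high in the strains lacking RRP6, responded lower than in WT there, and HIS5 at 45 min fell in both (-0.60 ± 0.13 in rrp6Δ and -1.05 ± 0.13 in the double deletion) where it had risen in WT. At 45 min the HIS5 response minus that of WT was -1.91 ± 0.19 in rrp6Δ (adjusted p = 8.12e-09) and -2.35 ± 0.19 in the double deletion (adjusted p = 2.85e-10), and at 10 min it was -1.04 ± 0.18 and -1.35 ± 0.18. At 45 min HIS5 stood at 152, 155 and 142 CPM in WT, 94.4, 115 and 89.2 in rrp6Δ and 94.8, 104 and 94.7 in the double deletion. The same difference for LYS1 was -0.96 ± 0.18 in rrp6Δ at 10 min and -1.14 ± 0.19 at 45 min. In the double deletion it was -1.46 ± 0.18 and -1.35 ± 0.19. For HOM2 it was -0.98 ± 0.20 and -1.79 ± 0.20 in rrp6Δ at 10 and 45 min and -1.22 ± 0.20 and -1.70 ± 0.20 in the double deletion. Each such value is the heated difference from WT less the unheated one. Heated LYS1 did not pass against WT, at 0.16 and -0.01 in rrp6Δ and 0.08 and 0.19 in the double deletion. Heated HOM2 did not pass at 10 min (0.23 in rrp6Δ and -0.19 in the double deletion). At 45 min HOM2 was lower than in WT (-0.59 and -0.66).

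The HIS6 response was higher than that of WT in all 6 comparisons, by 0.69 ± 0.22 and 1.02 ± 0.26 in mpk1Δ at 10 and 45 min, 0.86 ± 0.23 and 1.68 ± 0.27 in rrp6Δ, and 1.35 ± 0.22 and 1.58 ± 0.27 in the double deletion. The first of these did not pass without WT 0 min library A (0.59), mpk1Δ 0 min library A or B (0.66 and 0.62) or mpk1Δ 10 min library B (0.62), and with total counts neither it (0.78) nor the third (0.70) passed. ARO7 responded higher at 45 min by 1.36 ± 0.19 in mpk1Δ, 1.22 ± 0.19 in rrp6Δ and 1.82 ± 0.19 in the double deletion, where the 10 min value was 0.61 ± 0.18 and 0.47 with total counts, not passing. At 10 min the ARO7 difference did not pass in mpk1Δ (0.45) or rrp6Δ (0.09).

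Further responses by the same test are given for the strains where they ranked among the largest. Of these genes, ARO8 at both times, THR1 at 10 min and GDH1 and HIS5 at 45 min responded lower in every deletion strain. In mpk1Δ at 10 min ARO4 (-1.56 ± 0.37), GDH1 (-1.16 ± 0.27), THR1 (-1.16 ± 0.23) and ARO1 (-0.99 ± 0.18) responded lower and HOM3 higher (0.81 ± 0.15). At 45 min ARO1 (-1.64 ± 0.18), GDH1 (-1.38 ± 0.28) and HIS5 (-0.88 ± 0.18) responded lower and HIS1 (0.82 ± 0.26) and LYS4 (0.67 ± 0.18) higher; HIS5 was -0.26 with total counts and HIS1 0.62 without mpk1Δ 45 min library B, neither passing. In rrp6Δ ARO8 responded lower at 10 min (-0.87 ± 0.19) and at 45 min (-1.26 ± 0.20). In the double deletion GDH1 responded lower at 10 min (-1.10 ± 0.27) and HIS4 at 45 min (-1.42 ± 0.25), and PRO1 responded higher at 45 min (0.86 ± 0.32) but not without library A or B of the double deletion at 45 min (0.78 and 0.57), its 0 min library B (0.82), WT 0 min library C (0.84) or WT 45 min library C (0.66).

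GLN1 responded higher than in WT by 1.62 ± 0.54 in rrp6Δ at 10 min (adjusted p = 0.0419) and by 1.36 ± 0.54 in the double deletion at 45 min (adjusted p = 0.0497). The first was lost when any 1 of the 12 libraries other than WT 10 min library A was left out (1.37 to 1.73). The second was lost without any 1 of 9 of the 12, which were all but WT 45 min library B and libraries A and B of the double deletion at 45 min, and stood at 0.52 without library C of the double deletion at 45 min. ARO4 in rrp6Δ at 45 min (-1.16 ± 0.42, adjusted p = 0.0348) stood at -0.50 without WT 45 min library B, and was also lost without WT 0 min library A or B (-1.15 and -1.11), rrp6Δ 0 min library C (-1.10), or rrp6Δ 45 min library B or C (-1.17 and -1.12).

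In heated cells the double deletion was compared with the sum of the single deletions in the same way. At 10 min 10 genes lay above that sum and 0 below in edgeR (10.2% and 6.63% of all genes), with 13 and 1 at an unadjusted p under 0.05 and 11 and 0 in DESeq2. At 45 min 13 lay above and 3 below (21.5% and 16.8%). GCN4 lay above it by 0.65 ± 0.20 at 10 min (adjusted p = 0.0267) and 1.46 ± 0.20 at 45 min (adjusted p = 4.3e-06). Also above at 10 min were ARO4 (1.42 ± 0.37), ARO2 (1.09 ± 0.26), THR1 (0.89 ± 0.24) and GDH1 (0.80 ± 0.27), and at 45 min ARO4 (1.34 ± 0.46), GDH1 (1.33 ± 0.29) and HOM2 (1.08 ± 0.20). HIS6 (-1.10 ± 0.29), ARO7 (-0.48 ± 0.19) and PRO2 (-0.45 ± 0.17) lay below at 45 min.

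The 10 min departures rested on the shared estimate of spread and on single libraries. The count was 0 with only the libraries compared, where 13 lay above and 0 below at an unadjusted p under 0.05, and 3 without WT 10 min library B, 6 without mpk1Δ library A, 5 without rrp6Δ library B or C or double-deletion library A, and 4 without double-deletion library B. At 45 min it was 10 without WT library B, which took ARO4 to 0.67, and with total counts, under which the all-gene median shifted by -0.53, 3 lay above and 7 below; DESeq2's size factors gave 13 and 1. GCN4 at 10 min was lost without library A or B of the double deletion (0.59 and 0.59), WT B (0.59), mpk1Δ B (0.62) or rrp6Δ B or C (0.62 and 0.59). GDH1 at 10 min was lost without any 1 of 9 libraries (0.64 to 0.85), all but WT C, rrp6Δ A and library C of the double deletion, and THR1 without WT B or double-deletion B (0.67 and 0.72). At 45 min ARO7 was lost without any 1 of 8 libraries (-0.33 to -0.48), all but C of WT, mpk1Δ and the double deletion and rrp6Δ A, and without any of these 8 the count below the sum was 1. PRO2 was lost without any 1 of 9 (-0.31 to -0.46), all but C of WT and the double deletion and rrp6Δ A, and ARO4 also without double-deletion B (1.23). With total counts ARO4 (0.805) and HOM2 (0.54) at 45 min were lost, as were GCN4 (0.54) and GDH1 (0.69) at 10 min. With only the libraries compared ARO4 at 45 min was lost too (1.29).

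Isozymes are given side by side; the difference between the members of a pair was not tested. LYS20 and LYS21 share 88.2% of their coding bases with an identical run of 278, and 37.8% and 36.7% of their 50-base words occur elsewhere in the genome, so reads could be lost or split between them and their counts are uncertain. In WT LYS20 went from 235, 235 and 238 CPM to 28.2, 49.1 and 18.9 at 45 min (-2.78) and LYS21 from 100, 101 and 119 to 16.7, 23.4 and 16.7 (-2.42). ARO3 and ARO4, which share 63.7% and no 50-base word, catalyse the same first shikimate step and are inhibited by phenylalanine and tyrosine respectively. ARO3 fell in WT by 2.11 at 45 min, from 181, 165 and 180 CPM to 36.2, 45.3 and 38.4, where ARO4 fell by 4.79. In unheated rrp6Δ ARO3 was at 333, 364 and 378 CPM (1.03, passed) and ARO4 at 0.73 above WT (not passed).

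ASN1 and ASN2, the asparagine synthetases, share 81.0% of coding bases and 2.04% of 50-base words. In unheated rrp6Δ ASN1 was at 951, 993 and 1076 CPM against 542, 602 and 689 in WT (0.72, passed) and ASN2 at 757, 733 and 769 against 706, 719 and 732 (0.07, not passed). At 45 min in WT ASN1 was at 269, 382 and 205 CPM and ASN2 at 287, 287 and 262, falls of 1.09 and 1.37. GDH1 went in WT from 592, 548 and 619 CPM through 455, 482 and 453 to 106, 123 and 89.0, and in mpk1Δ from 486, 523 and 579 through 193, 171 and 196 to 34.1, 39.2 and 37.6.

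**Figure D5:**
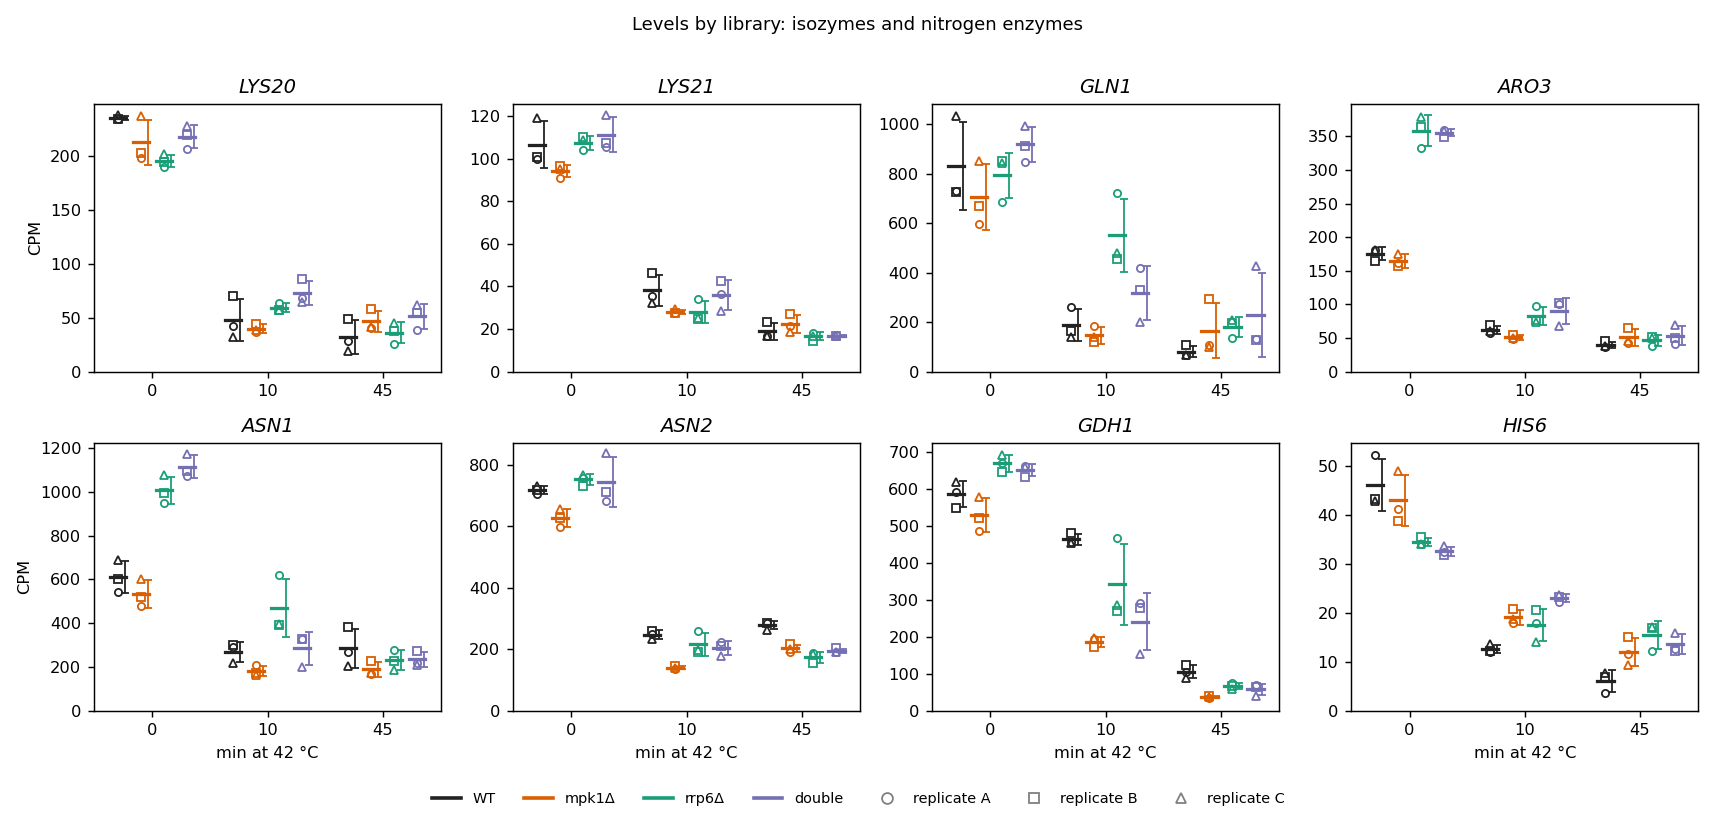
CPM by minutes at 42 °C for LYS20, LYS21, ARO3, ASN1, ASN2, GLN1, GDH1 and HIS6, with 1 symbol per library (circle A, square B, triangle C), coloured by strain, a bar at the mean and a whisker of 1 SD (n = 3). GLN1 shows 1 library of the double deletion at 426 CPM at 45 min beside 133 and 126, and ASN1 stands at 951 to 1076 CPM in unheated rrp6Δ against 542 to 689 in WT.

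Genes that control Gcn4 were taken as a list of 14, holding Gcn2 and its partners, subunits of the initiation factors eIF2 and eIF2B, and PCL5 and PHO85, which mark Gcn4 for degradation. In WT 10 of 14 fell and 1 rose at 10 min, and 10 fell and 4 rose at 45 min; over all genes 36.2% fell and 38.3% rose, then 39.2% and 41.0%. PCL5 was the riser at 10 min, and GCD1, an eIF2B subunit, fell by 2.56. PCL5 is itself a target of Gcn4, and in unheated cells it was the only 1 of the list to rise in rrp6Δ (1.48) and in the double deletion (2.02), beside 9.32% and 14.8% of all genes. PCL5 also stood higher in unheated mpk1Δ, which has RRP6, at 97.3, 84.9 and 99.1 CPM against 41.1, 47.2 and 49.4 in WT. In the double deletion 3 of the list fell, beside 11.6% of all genes.

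The remaining enzymes of these pathways were a list of 11, of which LYS2 had no reads and 10 were tested. In WT 4 fell and 5 rose at 10 min, and 6 fell and 4 rose at 45 min, beside the shares of all genes just given. ARO9, aromatic aminotransferase II, which works in breakdown and is induced by aromatic amino acids, rose by 5.61 ± 0.28 in WT at 45 min while its isozyme ARO8 fell. GLT1 (1.62), GDH3 (1.74 ± 0.40, from 0.913, 2.73 and 3.01 CPM) and GDH2 (1.77), the other enzymes of glutamate metabolism, rose where GDH1 fell by 2.46. In unheated rrp6Δ 3 rose (HIS3, ARO9 and GLT1, at 1.07, 0.81 and 0.84), beside 9.32% of all genes.

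Breakdown genes were a list of 7, of which 4 fell and 3 rose in WT at 45 min, beside 39.2% and 41.0% of all genes. The 4 that fell were ASP1 (-2.18), CHA1 (-2.04), GLY1 (-0.51) and PUT3 (-0.28). PUT1, proline oxidase, rose by 5.44 ± 0.42, from 3.35, 4.02 and 5.42 CPM, and ARO10, the phenylpyruvate decarboxylase, by 5.63 ± 0.31, while PRO1 and PRO2, which make proline, fell by 2.16 and 1.10. Among 12 amino acid permeases 4 rose and 6 fell at 45 min in WT, and among 9 transcription factors 6 rose and 3 fell, where 41.0% of all genes rose and 39.2% fell. The proline permease PUT4 went from 0, 1.61 and 0.904 CPM to 57.2, 34.7 and 37.3 (5.36 ± 0.52). DAL80, a repressor of nitrogen catabolic genes, rose from 0, 0.161 and 0 CPM to 3.62, 4.99 and 3.34, and its fold is not given because the unheated level is near 0. In mpk1Δ at 45 min 2 permeases rose and 7 fell (42.4% and 39.5% of all genes), in rrp6Δ 1 and 7 (40.5% and 39.0%), and in the double deletion 2 and 6 (39.9% and 37.9%). These lists, like the 34 genes, were drawn up with earlier results of these data known.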

How the data were processed

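Alignment was with HISAT2 2.1.0 against build R64 and counting with HTSeq, per the submitters' processing notes; the version of HTSeq and its strand setting are not given in the sources used here. Values deposited by the authors are whole-number counts for 6600 open reading frames, with 5 summary lines, which stayed out of all sizes and tests: per library, reads without a feature made up 2.04 to 10.1% of all reads, ambiguous reads 0.616 to 1.84%, low-quality alignments 3.75 to 6.35%, unaligned reads 2.01 to 14.0% and reads aligned to several places 4.10 to 26.0%. In libraries A and B the share aligned to several places was higher at each time in the strains lacking RRP6. At 45 min it was 21.1 and 24.2% in rrp6Δ and 17.7 and 19.4% in the double deletion. In WT it was then 9.82 and 7.26%, and in mpk1Δ 5.13 and 4.89%. The part of this in the comparisons was not tested. Times, labelled without a unit, were taken as minutes because the treatment protocol speaks of 45 minutes. Gene positions came from RefSeq's R64 annotation, which matched 5917 identifiers; 683 had none, so overlaps with those are unknown. No gene of the 34 overlapped another annotated gene.

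Counts were filtered (edgeR 4.0.16, filterByExpr, minimum count 10, minimum total 15), scaled by TMM (factors 0.618 to 1.388) and fitted by edgeR's quasi-likelihood model with 12 group coefficients over 36 libraries (24 residual degrees of freedom, common biological coefficient of variation 0.1535). P-values were adjusted by Benjamini-Hochberg over 6017 genes in each of 30 comparisons. The genes, lists and tests were chosen with earlier results of these data known. Named in each comparison were GCN4 and up to 4 rising and 4 falling genes with the largest change among those called whose groups did not overlap (for differences between responses and departures from additivity, among those called), and the isozymes, GLN1 and GDH1 in full. Alternatives were DESeq2 1.42.0, DESeq2's size factors, total counts, other filters, fits of only the libraries compared, the replicate letter as a block, and leaving out libraries. Same-lettered libraries deviated together (r over 0.1 for all 3 letters) in 8 of 21 comparisons of 2 groups: 45 with 10 min in WT, mpk1Δ and the double deletion, mpk1Δ with WT at 0 and 45 min, and the double deletion with WT at all 3 times; this pairing comes from the data only. The block moved no total count of calls by over 1.5 times.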

Additional observations from a re-analysis of the deposited data

Results flagged for a closer look

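The results here were flagged because a heat response in a deletion strain differed from that of WT by edgeR's test of the difference, or because the double deletion departed from the sum of the single deletions by the same test. Values are log2 differences, and no formal outlier test was run on groups of 3 libraries; each library was left out in turn instead.

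In mpk1Δ at 10 min 12 of the 34 genes responded differently from WT: GCN4 (-0.66), ARO4 (-1.56), GDH1 (-1.16), THR1 (-1.16) and ARO1 (-0.99) lower, HOM3 (0.81) and HIS6 (0.69) higher. At 45 min 16 did, with GCN4 (-1.19), ARO1 (-1.64), GDH1 (-1.38) and HIS5 (-0.88) lower and ARO7 (1.36), HIS6 (1.02), HIS1 (0.82) and LYS4 (0.67) higher. Of all 6017 genes 799 responded lower and 480 higher at 10 min, and 1488 and 1050 at 45 min.

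In rrp6Δ at 10 min 10 genes responded differently, with HIS5 (-1.04), HOM2 (-0.98), LYS1 (-0.96) and ARO8 (-0.87) lower and GLN1 (1.62) and HIS6 (0.86) higher. At 45 min 18 did, with GCN4 (-1.07), HIS5 (-1.91), HOM2 (-1.79), ARO8 (-1.26) and ARO4 (-1.16) lower and HIS6 (1.68) and ARO7 (1.22) higher. Of all 6017 genes 504 responded lower and 288 higher at 10 min, and 1178 and 759 at 45 min.

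In the double deletion at 10 min 17 genes responded differently, with LYS1 (-1.46), HIS5 (-1.35), HOM2 (-1.22) and GDH1 (-1.10) lower and HIS6 (1.35) and ARO7 (0.61) higher. At 45 min 21 did, with GCN4 (-0.64), HIS5 (-2.35), HOM2 (-1.70), HIS4 (-1.42) and LYS1 (-1.35) lower and ARO7 (1.82), HIS6 (1.58), GLN1 (1.36) and PRO1 (0.86) higher. Of all 6017 genes 663 responded lower and 550 higher at 10 min, and 1266 and 955 at 45 min.

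Departures from the sum of the single deletions were found for 1 gene at 0 min, HIS4 (1.32). At 10 min there were 10, with ARO4 (1.42), ARO2 (1.09), THR1 (0.89), GDH1 (0.80) and GCN4 (0.65) above the sum. At 45 min there were 16, with GCN4 (1.46), ARO4 (1.34), GDH1 (1.33) and HOM2 (1.08) above it and HIS6 (-1.10), ARO7 (-0.48) and PRO2 (-0.45) below. Over all 6017 genes, 10 lay above the sum and 52 below at 0 min, and 611 and 399 at 10 min. At 45 min 1295 lay above and 1012 below.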

How the results depend on the processing

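Of 30 total counts of called genes, 21 stayed within 1.5 times under every alternative run, and those that did not are given here with the cause not tested. A total joins both directions and does not show a turned split. With total-count scaling, mpk1Δ against WT at 45 min went from 7 higher and 14 lower to 22 and 3. The double deletion at 45 min went from 7 and 10 to 17 and 1, and the mpk1Δ response at 45 min from 6 and 10 to 14 and 2. With only the libraries compared, unheated rrp6Δ against WT gave 22 calls, 16 higher and 6 lower (11 in the full fit), rrp6Δ at 10 min 7 (15), the double deletion 10 at 10 min (17) and 11 at 45 min (17), unheated mpk1Δ 6 (3), and the departures from additivity 2 at 0 min (1), 0 at 10 min (10) and 8 at 45 min (16). Total-count scaling gave 8 for rrp6Δ at 10 min, 5 for the mpk1Δ response at 10 min (12), and 4 and 10 for the departures at 10 and 45 min. DESeq2 gave 5 for unheated mpk1Δ. Leaving out both heated C libraries of the double deletion, which were in the 2 library pairs with the lowest correlations, gave 16 departures at 10 min. Leaving out 1 library at a time gave 3 to 15 departures at 10 min and 10 to 17 at 45 min, and moved no other total by over 1.5 times; the counts by direction that it moved further stand beside the results.

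The 199 named values kept direction and call in 196 cases in DESeq2, 196 with its size factors, 195 with no filter, 197 with a minimum mean of 5 CPM, 197 with the replicate block, 182 with only the libraries compared and 173 with total counts, where 25 lost the threshold and LYS1 in rrp6Δ at 10 min reversed (-0.19). Leaving out single libraries lost 98 of 1548 and reversed 0. With the block, GCN4 in WT from 10 to 45 min (-0.34, edgeR adjusted p = 0.0513) and the GLN1 response of the double deletion at 45 min (1.34, adjusted p = 0.057) were lost, and no other call of a named gene changed. Among the 34 HIS6 had the lowest level in any library (3.62 CPM) and so the least depth behind it; DAL80, PUT4, GDH3 and PUT1 were lower still in at least 1 unheated WT library.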
